A study of Arabidopsis thaliana with 30 samples.

Results

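The genes described here encode the cruciferins and the 2S albumins, the main storage proteins of the Arabidopsis thaliana seed. They comprise 4 cruciferin genes, CRA1 (AT5G44120), CRU2 (AT1G03880), AT1G03890 and CRU3 (AT4G28520). The 5 genes of 2S albumins are SESA1 (AT4G27140), SESA2 (AT4G27150), SESA3 (AT4G27160), SESA4 (AT4G27170) and SESA5 (AT5G54740). They were taken by gene identifier and make up 9 of the 38217 features in the table of gene counts, of which 32046 had at least 1 read. All 9 passed the filter on low counts that left 23222 genes for the comparisons.

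RNA-seq was carried out on wild-type Col0 seeds and seedlings at 10 time points with 3 biological replicates each, 30 libraries in all. Freshly harvested seeds (H) and seeds after about 14 days of dry ripening (0 h) were followed by seeds imbibed on MS medium with sucrose and stratified at 4 °C in the dark, sampled after 1 h (1 h S), 12 h (12 h S) and 48 h (48 h S). The last 5 time points had 48 h of stratification and then 1, 6, 12, 24 or 48 h in continuous light at 22 °C (1 h SL to 48 h SL), and the labels call only the last of them seedling. Every time point carried the same genotype, and all seeds came from 1 batch of plants, so the replicates measure the spread among samples of that batch. A library holds whole seeds or seedlings, so fewer storage cells and less transcript per cell cannot be told apart. All levels are relative to the reads of the library, so a change in other RNA also moves them.

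Cruciferins are legumin-type globulins and the 2S albumins are small, sulphur-rich proteins. Both are made as precursors on the endoplasmic reticulum during seed maturation, sorted to the protein storage vacuoles and cut there by vacuolar processing enzymes. After germination they are broken down and feed the seedling with amino acids. Their transcription in the maturing embryo is driven by the B3-domain regulators ABI3, FUS3 and LEC2, which bind the RY element, together with bZIP factors that bind ACGT-core elements such as the abscisic acid response element (ABRE). Dry seeds keep a store of transcripts made during maturation.

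The libraries held 8234345 to 76294780 reads assigned to genes, with a median of 47254122. The widest 95% Wilson interval of a family's share of a library spanned 0.0393 percentage points and covers counting error only. Defining markers followed the labels at H and 48 h SL. They are given in CPM (reads scaled to the total of the library). The summed level of 4 dry seed embryo genes (OLEO1, OLEO2, EM1 and EM6) was 83.6 to 101.8 CPM at 48 h SL. At H this sum was 31788 to 32593 CPM. That of 4 green seedling genes was 8702 to 10128 CPM at 48 h SL and 22.6 to 27.2 CPM at H. Of the 2 endosperm genes, EPR1 had 82.2 to 119.2 CPM at 48 h SL and 12822 to 16334 CPM at H, whereas EXPA2 peaked at 12 h SL at 547.1 to 764.1 CPM. A few libraries stood apart from their replicates. The 1 h S libraries differed among themselves (replicate 3 had 8884 CPM of EPR1 against 3365 and 3650, and replicate 2 was the shallowest library). The green seedling sum did not follow the labels there. It was 662.8, 170.8 and 37.3 CPM in 1 h S replicates 2, 3 and 1. At 0 h this sum was 31.4 to 70.2 CPM and at 12 h S 19.0 to 27.4 CPM, and the cause was not tested. Replicate 2 of 1 h SL had 2318 CPM of EPR1 against 489.6 and 624.4, replicate 3 of 6 h SL had 1644 CPM against 291.7 and 253.6, and 13.1% of the reads of 12 h SL replicate 3 were ribosomal RNA.

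The gene positions are those of TAIR10, and each equalled the RefSeq position on TAIR10.1. SESA1 to SESA4 lie in tandem on the plus strand of chromosome 4, at chr4:13607329-13608031, chr4:13609341-13610075, chr4:13611796-13612563 and chr4:13613596-13614283, while SESA5 stands alone at chr5:22238358-22239187 on the minus strand. CRU2 (chr1:985751-988146) and AT1G03890 (chr1:989198-991020) are neighbours on the plus strand of chromosome 1. CRA1 is at chr5:17756238-17758336 on the minus strand and CRU3 at chr4:14087556-14089796 on the plus strand. The cruciferins have 4 coding exons each and coding lengths of 1356 to 1575 bases, and the 2S albumins have 1 coding exon each and 495 to 513 bases. In pairwise alignment of the coding sequences, SESA2 and SESA3 shared 94.1% of aligned bases, and the pairs among SESA1 to SESA4 ranged from 82.6% to 94.1%. SESA5 shared 69.5% to 72.2% with the other 2S albumins. CRA1 and CRU2 shared 77.0%, and the other cruciferin pairs 64.3% to 69.7%. No run of 50 bases in a transcript of a member occurred in the transcript of another gene, so a read of that length without errors has 1 source among annotated genes. How the counting treated reads that map to several places is not given in the sources used here.

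Upstream sequences of 5 members are shown because they carry different sets of RY cores. Each sequence is the 250 bases before the annotated start, read 5′ to 3′ on the strand of the gene from the RefSeq TAIR10.1 genome, with every RY core (CATGCA or its reverse complement TGCATG) in capitals. CRA1 is chr5:17758337-17758586 (minus strand), CRU3 chr4:14087306-14087555 (plus), SESA1 chr4:13607079-13607328 (plus), SESA3 chr4:13611546-13611795 (plus) and SESA5 chr5:22239188-22239437 (minus).
CRA1: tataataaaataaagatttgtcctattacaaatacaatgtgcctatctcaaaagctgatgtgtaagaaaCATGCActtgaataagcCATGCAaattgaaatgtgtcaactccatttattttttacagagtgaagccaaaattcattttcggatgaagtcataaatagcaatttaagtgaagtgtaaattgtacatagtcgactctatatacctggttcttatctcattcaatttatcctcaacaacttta
CRU3: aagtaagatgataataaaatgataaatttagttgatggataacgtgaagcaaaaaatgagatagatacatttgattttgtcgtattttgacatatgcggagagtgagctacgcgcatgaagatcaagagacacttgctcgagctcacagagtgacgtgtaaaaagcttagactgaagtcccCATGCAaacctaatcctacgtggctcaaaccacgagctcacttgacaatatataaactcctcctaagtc
SESA1: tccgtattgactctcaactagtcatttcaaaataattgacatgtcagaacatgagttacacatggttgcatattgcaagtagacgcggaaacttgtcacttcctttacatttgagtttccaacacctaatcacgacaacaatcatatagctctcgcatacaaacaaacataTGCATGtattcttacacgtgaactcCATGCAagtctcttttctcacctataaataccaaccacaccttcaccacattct
SESA3: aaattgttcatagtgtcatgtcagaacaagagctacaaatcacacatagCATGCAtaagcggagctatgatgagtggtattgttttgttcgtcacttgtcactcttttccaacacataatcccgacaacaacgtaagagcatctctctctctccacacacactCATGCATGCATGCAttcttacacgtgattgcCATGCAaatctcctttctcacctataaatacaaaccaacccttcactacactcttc
SESA5: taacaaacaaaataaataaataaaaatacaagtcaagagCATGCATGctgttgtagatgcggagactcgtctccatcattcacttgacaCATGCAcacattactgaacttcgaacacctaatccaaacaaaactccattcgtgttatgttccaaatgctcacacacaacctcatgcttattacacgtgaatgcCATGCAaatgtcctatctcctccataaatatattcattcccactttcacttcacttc

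The windows of 8 members, of which 3 are cruciferins, were described. Counting overlapping RY core matches on both strands, SESA3 had 7, SESA4 6, SESA5 4, SESA2 3, SESA1 and CRA1 2 each, and CRU3 and AT1G03890 1 each. Over the same windows of 27443 protein-coding genes, 8.43% held at least 1 RY core and 1.66% at least 2. The ABRE core (ACGTG or its reverse complement CACGT) occurred in all 5 genes of 2S albumins and, among the 3 cruciferin windows, in that of CRU3, against 22.9% of all windows. In each 2S albumin window an ACGTG stood 5 bases before a CATGCA, as in the stretch close to the end of the SESA3 and SESA5 sequences above. This arrangement, noticed after the sequences had been read, occurred in 11 of the 27443 windows (0.0401%), of which 5 were the 2S albumins. As SESA1 to SESA4 are tandem genes with similar coding sequences, their windows may not be separate occurrences. The matches are letters in a window and were not tested as binding sites.

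The 9 members held a large part of the dry seed transcriptome and almost none of the seedling's. Their mean share of all assigned reads was 14.8% at H, 11.9% at 0 h, 11.4% at 1 h S, 8.50% at 12 h S, 3.03% at 48 h S, 3.86% at 1 h SL, 1.24% at 6 h SL, 0.348% at 12 h SL, 0.106% at 24 h SL and 0.0463% at 48 h SL. The families parted during stratification. Cruciferins took 9.81% of reads at H, 6.77% at 0 h, 3.17% at 12 h S and 1.55% at 48 h S. The 2S albumins stayed between 5.02% and 5.44% from H to 12 h S and stood at 1.48% at 48 h S. Within the 2S albumins the steady sum hid opposite courses: SESA1 to SESA4 together went through 2.51% at H, 2.28% at 0 h, 0.607% at 12 h S and 0.375% at 48 h S, whereas SESA5 had 2.51%, 2.88%, 4.73% and 1.11% at the same times. The replicates were close (SD of at most 0.529 percentage points for the 2S albumins) at H, 0 h, 12 h S and 48 h S, and wide at 1 h S, where the share of all members ran between 9.13% and 14.9%.

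**Figure D1:**
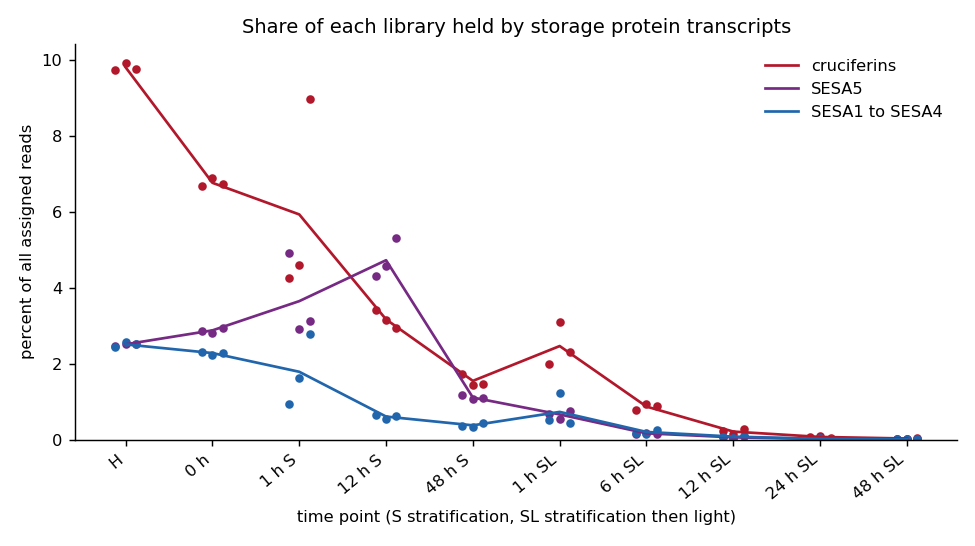
Percent of all assigned reads in each library (points, 3 per time point) held by the cruciferins, by SESA5 and by SESA1 to SESA4 together, against time point in the order of the series, with lines through the means. Cruciferins started at 9.81% at H, SESA5 reached 4.73% at 12 h S, and the points of 1 h S lay far apart.

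CRA1 and CRU3 were the most abundant cruciferins. CRA1 had 42253, 43863 and 42608 CPM at H, 30473, 31657 and 30971 CPM at 0 h, 12288, 10807 and 10721 CPM at 12 h S, and 5384, 4418 and 5221 CPM at 48 h S. In the light CRA1 had 3786, 4886 and 4453 CPM at 6 h SL and 101.7, 108.5 and 128.3 CPM at 48 h SL. The libraries of H, 0 h, 12 h S and 48 h S did not overlap, each time point lying below the one before, whereas 6 h SL overlapped 48 h S. CRU3 had 46258, 46752 and 46154 CPM at H, 28498, 29002 and 28137 CPM at 0 h, 16278, 14250 and 13132 CPM at 12 h S, and 8177, 6411 and 6869 CPM at 48 h S. It ended at 144.6, 125.2 and 129.4 CPM at 48 h SL. The mean at H was 380-fold that at 48 h SL for CRA1 and 349-fold for CRU3, and H was the highest and 48 h SL the lowest time point of both.

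CRU2, a closer relative of CRA1 by sequence, kept a larger part of its dry seed level through the cold than the other cruciferins. It had 8608, 8481 and 8725 CPM at H, 7787, 8106 and 8001 CPM at 0 h, 5481, 6488 and 5409 CPM at 12 h S, and 3701, 3640.4 and 2551 CPM at 48 h S. At 6 h SL CRU2 had 864.5, 1099.8 and 634.7 CPM, and at 48 h SL 29.5, 27.1 and 30.1 CPM. The mean at 48 h S was 0.414 times that at 0 h, against 0.161 times for CRA1.

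AT1G03890, annotated as a cupin superfamily protein, was the rarest member and the one whose level fell furthest in the cold. It had 219.4, 208.1 and 213.5 CPM at H, 130.5, 138.0 and 131.2 CPM at 0 h, 57.7, 59.4 and 55.6 CPM at 12 h S, and 11.9, 9.02 and 8.97 CPM at 48 h S. From 6 h SL on it was at 0.899 to 3.90 CPM in every library, and the counts at 48 h SL were 61, 67 and 113 reads. These reads are above the floor of 3 reads, so a residual level was measured, though at a precision lower than that of the other members.

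SESA3 was the most abundant of the tandem 2S albumin genes. It had 18180, 19367 and 18739 CPM at H, 16725, 16122 and 16453 CPM at 0 h, 4360, 3472 and 4277 CPM at 12 h S, and 2240.4, 2052 and 3108 CPM at 48 h S. In the light it had 3401, 9203 and 2790 CPM at 1 h SL, and 40.3, 35.4 and 42.2 CPM at 48 h SL. The middle value at 1 h SL belongs to the library with the high EPR1 level, and SESA2 was also highest there (560.6 CPM against 231.0 and 202.7 CPM). SESA3 was likewise highest in the 1 h S and 6 h SL libraries with the most EPR1, at 20632 and 1684 CPM. EXPA2, the other endosperm gene, was highest in the same library only at 6 h SL (464.2 CPM against 314.2 and 282.0 CPM). It had 8.59 CPM in that 1 h S library against 34.7 and 2.92 CPM in replicates 2 and 1. In 1 h SL replicate 2 it had 3.54 CPM against 2.61 and 3.55 CPM. The part of endosperm RNA in the values of SESA3 and SESA2 was not tested. SESA1, SESA2 and SESA4 had means of 10.6, 9.59 and 12.3 CPM at 48 h SL and of 3958, 1071 and 1302 CPM at H. SESA4 differed from its neighbours in the dry seed: its highest mean was that of 0 h (1605, 1628 and 1673 CPM), above all 3 libraries of H (1318, 1244 and 1344 CPM).

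SESA5 had a course of its own. It had 24766, 25253 and 25313 CPM at H, 28617, 28208 and 29511 CPM at 0 h, 43032, 45672 and 53110 CPM at 12 h S, and 11637, 10656 and 10934 CPM at 48 h S. Its highest mean was thus that of 12 h S, when the other 8 members were below their 0 h libraries. SESA5 then had 6675, 5537 and 7658 CPM at 1 h SL, 1581, 1818 and 1537 CPM at 6 h SL, and 116.5, 120.0 and 108.8 CPM at 48 h SL. The mean at 12 h S was 411-fold that at 48 h SL. Over the 9 members this fold between the highest and the lowest time point ran between 112 for SESA2 and 477 for SESA3, and 48 h SL was the lowest time point in each.

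**Figure D2:**
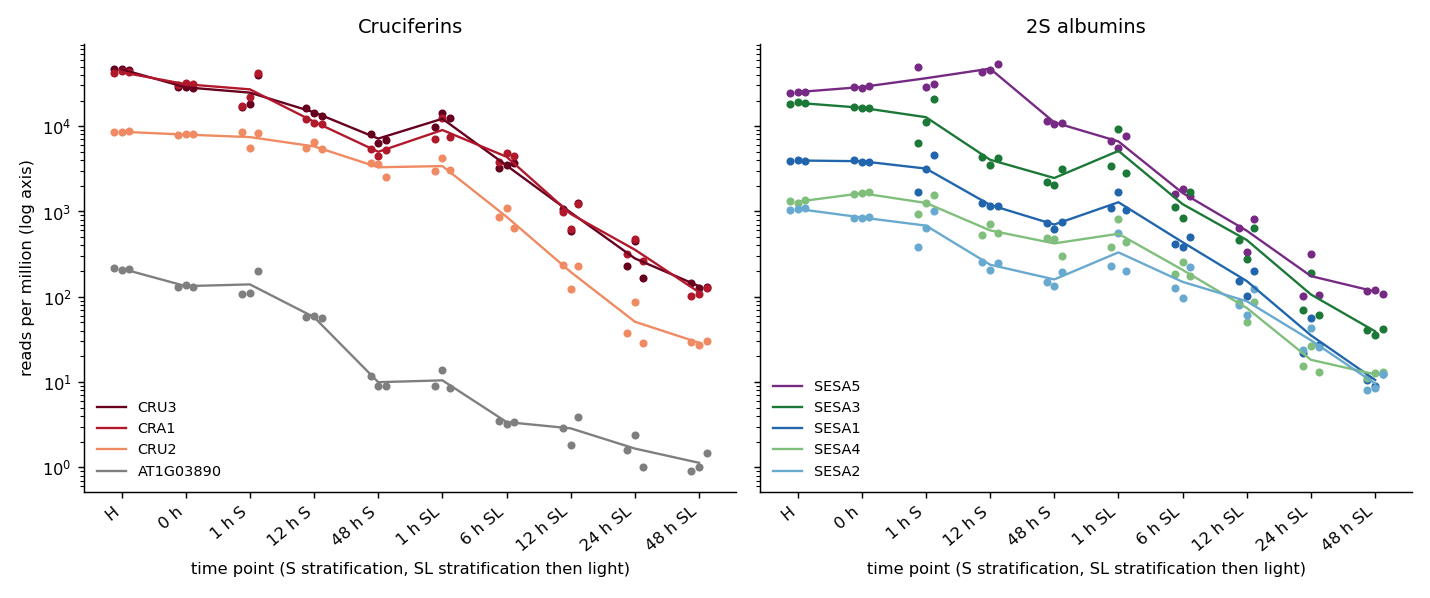
CPM (log axis) of the cruciferins (left) and the 2S albumins (right) in every library (points), by time point in the order of the series, with lines through the means. All members were lowest at 48 h SL, SESA5 was highest at 12 h S, and AT1G03890 was at 11.9 CPM or below from 48 h S on except for 13.7 CPM in 1 library of 1 h SL.

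Levels between genes were compared per length, as TPM (reads per base of gene length, scaled to their sum in the library). SESA5 had the highest mean TPM of the 9 at 9 of the 10 time points, from 38443 TPM at H and 58597 TPM at 12 h S to 222.4 TPM at 48 h SL. At 6 h SL CRA1 had the highest mean (2539 TPM) and overlapped SESA5 (2143 TPM). SESA5 also overlapped the next gene at 1 h SL, 12 h SL and 24 h SL, so its lead was beyond the spread of replicates at 6 time points. At H the order after SESA5 was CRU3 (32784.8 TPM), SESA3 (31040.5 TPM), CRA1 (29234.5 TPM), SESA1 (7154 TPM), CRU2 (6696 TPM), SESA4 (2405 TPM), SESA2 (1851 TPM) and AT1G03890 (178.6 TPM), and no neighbours in this order overlapped. At 12 h S the gap was wide, as CRU3 came next with 8316 TPM. At 48 h SL the order was CRU3 (118.7 TPM), CRA1 (97.0 TPM) and SESA3 (82.0 TPM) after SESA5, with CRA1 and SESA3 overlapping, and AT1G03890 was again last.

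All 9 members had a time effect over the 10 time points in the likelihood ratio test of DESeq2 (the largest adjusted p, that of SESA2, was 1.5e-145), as did 73.8% of the 32046 genes with reads. The fold changes below come from edgeR's quasi-likelihood test on all 30 libraries and are given as log2 of the later over the earlier time point. The value after ± is an approximate SE, the absolute log2 value divided by the square root of the F statistic. It rests on the fit of all libraries and does not measure the spread of the time points compared. Genes count as called at an adjusted p (Benjamini-Hochberg over all tested genes) below 0.01. No member was called higher in any of the 12 comparisons by this fit. At an unadjusted p below 0.05, 4 members were higher in 1 h SL than in 48 h S and none in the other comparisons, and the Wald test of DESeq2 called none higher.

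The seedling compared with the dry seed showed the largest changes. In 48 h SL against 0 h all 9 members were called lower and none overlapped, where 33.3% of tested genes were called lower and 92.1% did not overlap. SESA3 fell by 9.93 ± 0.61 on the log2 scale (adjusted p = 2.98e-14) and CRA1 fell by 9.33 ± 0.43 (adjusted p = 9.41e-17). SESA2, the smallest change, fell by 7.69 ± 0.44 (adjusted p = 8.9e-15). SESA5 fell by 9.19 ± 0.55 (adjusted p = 2.2e-14). The median of the members was -9.19, against 0.44 over all genes. Scaling by library size alone moved the median of all genes to 1.66 and the members to between -8.71 and -6.47, with the same calls.

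All members were lower at the end of stratification than in the dry seed, and imbibition, cold and dark cannot be told apart here. In 48 h S against 0 h all 9 were called lower and did not overlap, beside 28.5% of genes called lower and 76.8% not overlapping. AT1G03890 changed most of the members and fell by 4.23 ± 0.29 (adjusted p = 8.25e-13). CRU2, which changed least, fell by 1.76 ± 0.35 (adjusted p = 5.88e-05), and SESA5 fell by 1.86 ± 0.40 (adjusted p = 0.00017). CRA1 fell by 3.11 ± 0.32 and CRU3 fell by 2.48 ± 0.36, and the tandem 2S albumins ranged between -3.22 (SESA3) and -2.44 (SESA4). The median was -2.90 against 0.03 over all genes.

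After dry ripening the members differed in both directions. The mean CPM at 0 h was 0.615 times that at H for CRU3, 0.623 times for AT1G03890 and 0.723 times for CRA1. It was 1.26 times for SESA4 and 1.15 times for SESA5, and the rest lay between 0.794 (SESA2) and 0.981 (SESA1). In 0 h against H no member was called, while 8 of the 9 did not overlap, and 8.82% of genes were called in either direction and 55.5% did not overlap. The values ran between -0.77 ± 0.34 for CRU3 (adjusted p = 0.10) and 0.26 ± 0.27 for SESA4 (adjusted p = 0.51). At an unadjusted p below 0.05, 2 members were lower, and DESeq2's Wald test called none. A fit of the 6 libraries of H and 0 h alone called 7 members, and with 5 libraries that stand apart left out (all of 1 h S among them) the count was 1. The fit of the 6 libraries alone gave lower levels in 0 h for CRU3, AT1G03890, CRA1, SESA2 and SESA3. They were lower by 0.67, 0.65, 0.44, 0.30 and 0.16 on the log2 scale. In the same fit SESA4 and SESA5 were higher by 0.36 and 0.23. The calls thus differed with the libraries in the fit, and the cause was not tested. The shares of all genes called in these other fits are not given here. The counts of 7 and 1 therefore cannot be read as particular to the members.

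The first hour of imbibition could not be resolved. In 1 h S against 0 h no member was called and 1 did not overlap, beside 3.28% of genes called and 22.4% not overlapping. At an unadjusted p below 0.05, 1 member was lower, and the Wald test of DESeq2 called none. SESA3, for example, had 6360.5, 11239 and 20632 CPM in the 3 libraries of 1 h S, a range that spanned its 0 h level. The step from 1 h S to 12 h S inherits this spread: 6 members were called lower in 12 h S and 7 did not overlap, beside 17.7% and 43.9% of genes, and without 1 h S replicate 3 the count was 2.

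The comparison of 12 h S with 0 h, added because of this spread, avoids the 1 h S libraries. In 12 h S, 7 members were called lower and all 9 did not overlap, beside 19.6% of genes called lower and 65.6% not overlapping. SESA3 fell by 2.22 ± 0.43 (adjusted p = 0.00010), SESA2 fell by 2.04 ± 0.34, CRA1 fell by 1.66 ± 0.31 and AT1G03890 fell by 1.41 ± 0.26. CRU3 was called at -1.17 ± 0.34 (adjusted p = 0.0054), and its call was lost with library size alone (adjusted p = 0.012). Leaving out any 1 library of 0 h, or replicate 2 or 3 of 12 h S, also lost it (adjusted p between 0.011 and 0.024). CRU2 was not called, at -0.66 ± 0.34 (adjusted p = 0.10). SESA5 had the opposite sign, 0.52 ± 0.39, and was not called (adjusted p = 0.28). With the 6 libraries of these time points alone it was 0.53 and called (adjusted p = 0.0019), and over 14 alternatives the value stayed between 0.38 and 0.72 with adjusted p between 0.0019 and 0.51.

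SESA5 also fell in late stratification. In 48 h S against 12 h S, 6 members were called lower and all 9 did not overlap, beside 24.8% of genes called lower and 70.1% not overlapping. AT1G03890 fell by 2.82 ± 0.28 (adjusted p = 1.2e-09) and SESA5 fell by 2.38 ± 0.41 (adjusted p = 1.2e-05), and these were the largest changes among the members. CRA1 fell by 1.46 ± 0.30, CRU3 fell by 1.31 ± 0.34, and CRU2 and SESA1 were also called, at -1.10 and -1.05. The call of CRU2 was lost when any 1 of the 6 libraries was left out (adjusted p between 0.012 and 0.038) and with library size alone (adjusted p = 0.020), and that of SESA1 with library size alone (adjusted p = 0.032), without 12 h S replicate 1 and without 48 h S replicate 2. SESA2 had -0.86 ± 0.33 and SESA4 -0.79 ± 0.27, and these and SESA3 missed the threshold, whereas the 6 libraries alone, and the fit without 5 libraries that stand apart, called all 9. Without 48 h S replicate 2 the count was 3. For these other fits the share of all genes called is not given here, so their counts have no background beside them.

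The members did not move together in the first hour of light and warmth. In 1 h SL against 48 h S no member was called, and 5 did not overlap, beside 8.09% of genes called and 29.5% not overlapping. CRA1 (7049.7, 12442 and 7541 CPM in 1 h SL, against 5384, 4418 and 5221 CPM in 48 h S) lay higher in all 3 light libraries, with a log2 value of 0.73 ± 0.30 (adjusted p = 0.098). CRU3, SESA1 and SESA2 also lay higher without overlap, and SESA5 lower at -0.82 ± 0.39 (adjusted p = 0.16). At an unadjusted p below 0.05, 4 members were higher and 1 lower, and the Wald test of DESeq2 called none. The highest 1 h SL value of CRU2, AT1G03890, CRA1, CRU3 and SESA1 to SESA4 was that of replicate 2, the library with the high EPR1 level, whereas SESA5 was lowest in it.

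From then on most or all members fell in every step in the light. In 6 h SL against 1 h SL all 9 members were called lower and 8 did not overlap, beside 16.8% of genes called lower and 47.8% not overlapping. The values ran between -2.15 ± 0.43 for SESA3 and -1.14 ± 0.30 for CRA1. Fits of the 6 libraries alone called 7, with CRA1 and SESA2 lost, as did the fit without 1 h SL replicate 2, the library with the high EPR1 level, where SESA2 was at -0.76 (adjusted p = 0.065) and CRA1 at -0.94 (adjusted p = 0.018). Leaving out a library of 6 h SL also lost both calls (replicate 1) or 1 of them (SESA2 without replicate 2, CRA1 without replicate 3). In 12 h SL against 6 h SL 7 were called lower and 7 did not overlap, beside 12.9% and 46.9% of genes. AT1G03890 (-0.48 ± 0.29) and SESA2 (-0.91 ± 0.33) were not called. The call of SESA3 was lost with library size alone (adjusted p = 0.015). It was also lost without replicate 1 or 3 of 6 h SL or replicate 1 or 2 of 12 h SL (adjusted p between 0.013 and 0.045). That of SESA5 was lost without replicate 2 of 6 h SL (adjusted p = 0.012) or of 12 h SL (adjusted p = 0.023). In 24 h SL against 12 h SL, the interval in which the radicle emerged, all 9 were called lower and 8 did not overlap, beside 22% and 60% of genes. SESA3 fell by 2.38 ± 0.43 in this step, and AT1G03890 had the smallest value, -1.03 ± 0.30. The call of AT1G03890 was lost with library size alone (adjusted p = 0.029) and with the 6 libraries alone (adjusted p = 0.038). Leaving out replicate 1 or replicate 3 of either time point also lost it (adjusted p between 0.021 and 0.047). In 48 h SL against 24 h SL, 5 were called lower (CRA1, CRU3, SESA1, SESA2 and SESA3) and 5 did not overlap, beside 19% and 68.8% of genes. Without 24 h SL replicate 2, or without any 1 library of 48 h SL, 3 were called in this last step. That 24 h SL library had 481.9 CPM of CRA1 against 320.5 and 265.5 CPM, and 378.6 CPM of the summed embryo markers against 141.5 and 130.5 CPM.

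**Figure D3:**
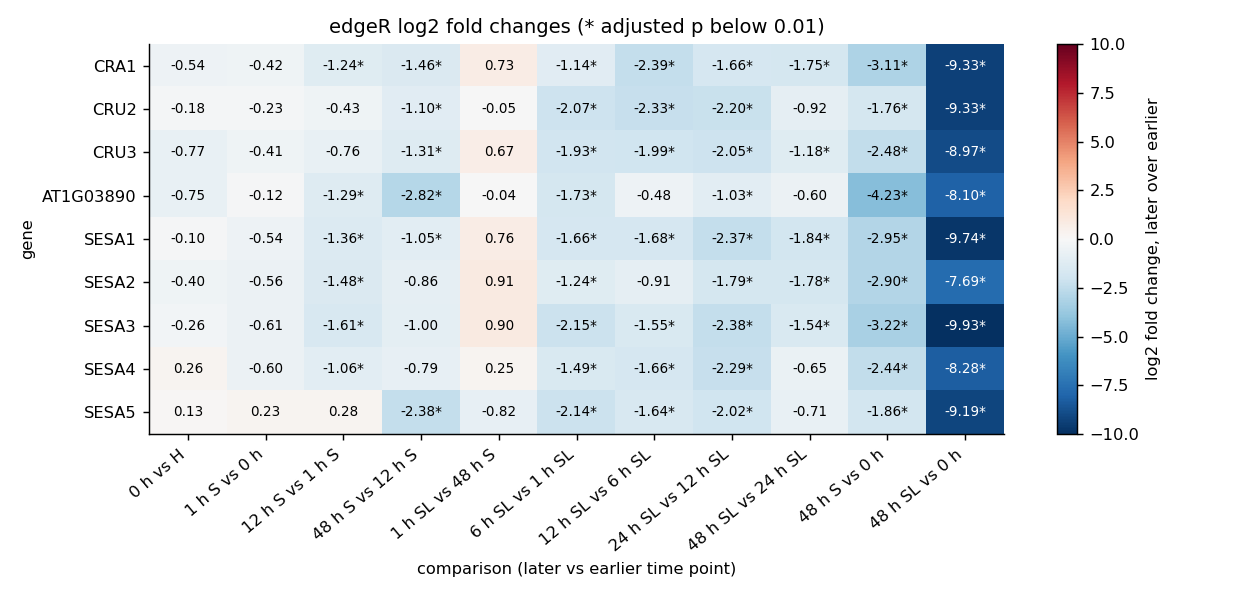
Log2 fold change (later over earlier time point, edgeR on all 30 libraries) of each member (rows) in 11 comparisons (columns), as colour and printed value, with an asterisk where the adjusted p was below 0.01. In 48 h S against 12 h S the values of AT1G03890 (-2.82) and SESA5 (-2.38) stand out, and in 1 h SL against 48 h S no value has an asterisk.

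Because a ratio within a library does not depend on its depth or scaling, the balance of the families was tested apart. The log2 ratio of cruciferin to 2S albumin reads had means of 0.97 at H, 0.39 at 0 h, 0.05 at 1 h S, -0.75 at 12 h S, 0.06 at 48 h S, 0.83 at 1 h SL, 1.25 at 6 h SL, 0.64 at 12 h SL, 1.01 at 24 h SL and 0.56 at 48 h SL. In linear terms cruciferin reads were 1.95 times those of 2S albumins at H, 0.595 times at 12 h S and 2.38 times at 6 h SL. The ratio differed between time points (permutation test of the F statistic, 100000 permutations, p = 1e-05, the smallest they can give, and adjusted p = 1.43e-05 over 10 such tests). Between single time points the exact permutation test of 3 against 3 libraries cannot go below 0.1, and it gave 0.1 for 0 h against H, for 12 h S against 0 h and for 48 h S against 12 h S. With SESA5 and AT1G03890 left out of the families, the permutation p was 0.0197, which missed the threshold. From 0 h to 12 h S the mean share of all reads went from 6.77% to 3.17% for the cruciferins. It went from 2.28% to 0.607% for SESA1 to SESA4 together and from 2.88% to 4.73% for SESA5. SESA1 to SESA4 thus fell by a larger factor than the cruciferins, opposite to the course of the family ratio.

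The share of each member within its family also differed over time for all 9 (permutation test, adjusted p of 0.00037 or less). SESA5 made up 49.6% to 50.3% of 2S albumin reads at H, 55.8% at 0 h, 88.6% at 12 h S (87.0% to 89.5%), 74.8% at 48 h S, 50.3% at 1 h SL (31.1% to 63.2%), 42.9% at 12 h SL and 61.6% at 48 h SL (adjusted p = 1.43e-05). The shares of a family add up to the whole, so a rise of SESA5 lowers the sum of the others. The tests of its members are therefore not independent. SESA3 had 37.4% at H, 7.60% at 12 h S, 16.6% at 48 h S and 33.7% at 12 h SL. Between H and 12 h S, SESA1 went from 7.88% to 2.25% and SESA4 from 2.59% to 1.13%. SESA2, a minor gene in the seed with 2.13% at H and 0.45% at 12 h S, reached 9.42% of the residual 2S albumin reads at 24 h SL. Leaving out replicate 1 or replicate 2 of every time point kept 7 of the 9 shares past the threshold, with CRU3 and SESA3 lost in the first case and CRU2 and SESA3 in the second.

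Among the cruciferins the balance moved towards CRU2 in the cold. CRU2 made up 8.77% of cruciferin reads at H, 11.8% at 0 h, 18.3% at 12 h S, 21.3% at 48 h S, 13.9% at 1 h SL, 7.05% at 24 h SL and 10.3% to 10.6% at 48 h SL. AT1G03890 had 0.22% at H, 0.06% at 48 h S, 0.04% at 6 h SL and 0.41% at 48 h SL (adjusted p = 1.43e-05), so it left the pool faster than its relatives and then more slowly than they did. CRA1 ranged between 32.4% at 48 h S and 53.2% at 24 h SL, and CRU3 between 39.6% at 24 h SL and 49.97% at 1 h SL.

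**Figure D4:**
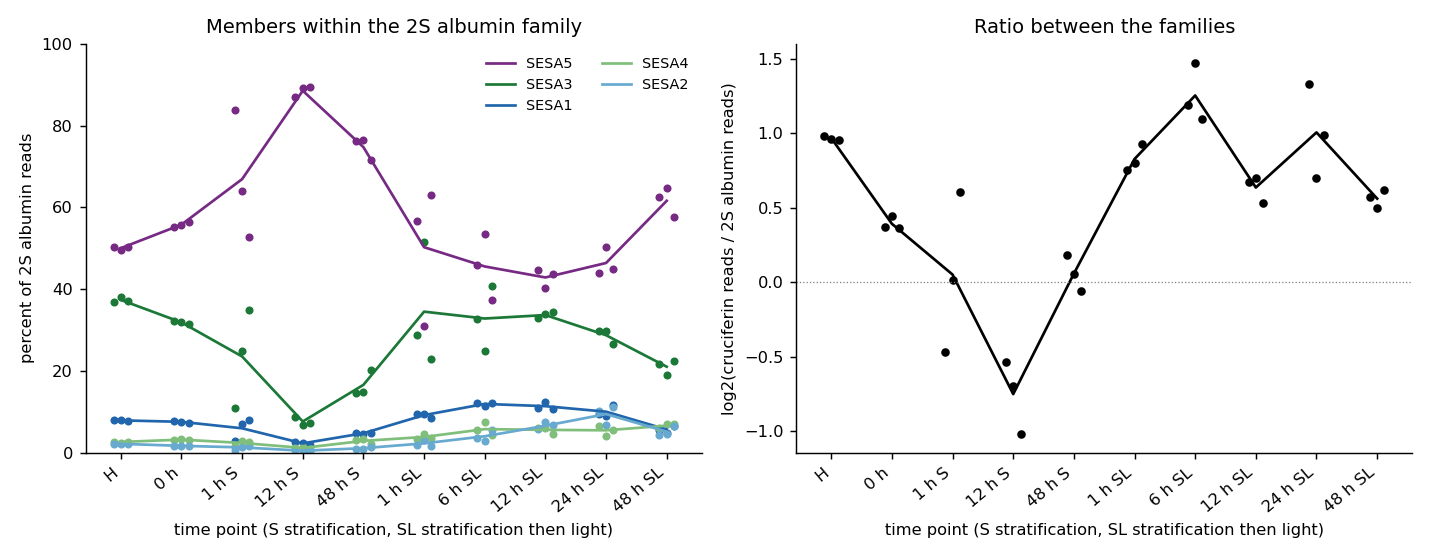
Percent of 2S albumin reads held by each of the 5 genes (left) and log2 ratio of cruciferin to 2S albumin reads (right) in every library (points) by time point, with lines through the means. SESA5 reached 88.6% of 2S albumin reads at 12 h S, where the ratio between the families had its lowest mean of -0.75.

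Transcript isoforms of CRA1 changed in proportion as well. The isoform table gives a normalised signal per transcript, in which transcripts AT5G44120.2 and AT5G44120.3 held nearly all of the CRA1 signal. Transcript AT5G44120.2 made up 51.8%, 53.2% and 50.6% of it at H, 53.1%, 54.2% and 54.0% at 0 h, 74.8%, 79.0% and 71.6% at 12 h S, and 80.8%, 73.5% and 72.0% at 48 h S. It stood at 92.3%, 70.0% and 93.4% at 1 h SL, and at 59.7%, 55.0% and 62.6% at 48 h SL. The share of AT5G44120.2 thus lay higher in the imbibed cold seed than in the dry seed without overlap, and lower again in the seedling than at 12 h S. The log2 ratio of both transcripts differed between time points (limma F-test, adjusted p = 0.000711, where 4826 of 8324 genes with 2 such transcripts were called). The call was lost without replicate 1 of every time point (adjusted p = 0.16) and without replicate 3 (adjusted p = 0.032), and stayed without replicate 2 (adjusted p = 0.00012).

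The RefSeq models of both transcripts differ in their outer ends and in intron 1, which both place between GT and AG. The boundaries are shown as 1 of the places where the models differ, and which reads set the signal of each transcript was not examined. On the minus strand intron 1 is chr5:17757823-17757945 (123 bases) in AT5G44120.3 and chr5:17757817-17757941 (125 bases) in AT5G44120.2, with the donor and the acceptor both moved. Each line gives 12 exon bases in lower case and 12 intron bases in capitals.
AT5G44120.3, donor side: tcgtggctaaggGTACGTACGACT
AT5G44120.2, donor side: ggctaagggtacGTACGACTCTTT
AT5G44120.3, acceptor side: TTACATTCTTAGgacgaggtctta
AT5G44120.2, acceptor side: TCTTAGGACGAGgtcttatgggaa

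For CRU3, the test of the most abundant transcripts AT4G28520.1 and AT4G28520.5 missed the threshold (limma F-test, adjusted p = 0.012). It passed with a pseudocount of 1 in place of 0.1 (adjusted p = 0.00057), so no call was made. As a description, transcript AT4G28520.3 made up 33.4% and 31.7% of its signal in replicates 1 and 3 of 1 h SL and 0.86% in replicate 2.

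**Figure D5:**
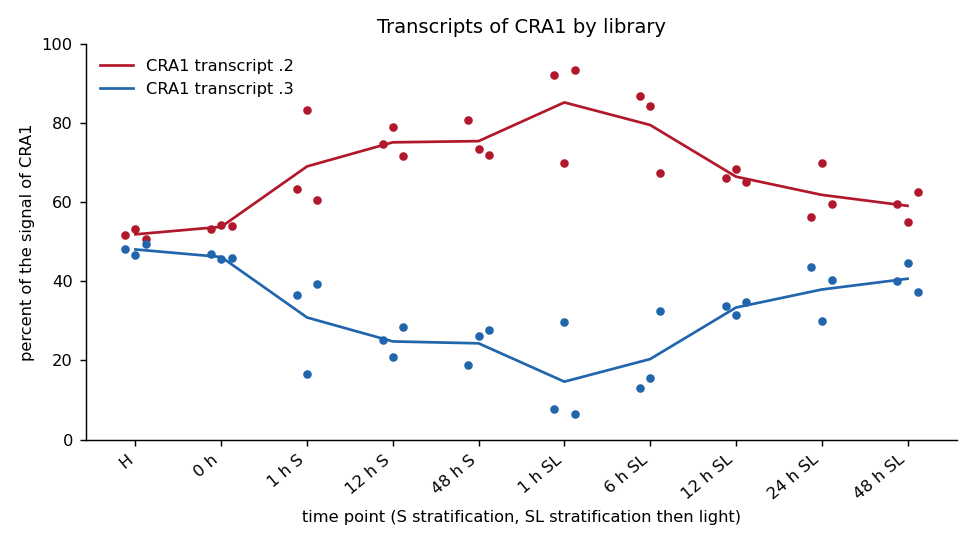
Percent of the CRA1 isoform signal in transcripts AT5G44120.2 and AT5G44120.3 in each library (points) by time point, with lines through the means. Transcript AT5G44120.2 was at 71.6% to 80.8% at 12 h S and 48 h S and at 50.6% to 54.2% in the dry seed (H and 0 h), and 1 h SL replicate 2 (70.0%) stood apart from its replicates.

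The genes whose profile over the 10 time point means was most like that of the families came from 15298 candidates. For the cruciferins they were M17 (AT2G41260), a late embryogenesis abundant gene, with Pearson's r = 0.997, the papain-type cysteine protease gene AT4G11310 (r = 0.996) and the vicilin-like cupin gene AT2G28490 (r = 0.996). For the 2S albumins they were AT4G11310 (r = 0.997), AT1G14940 (r = 0.997) and M17 (r = 0.995). The points share their libraries, and these are descriptions over 10 means. Of the members, AT1G03890 and SESA5 followed the mean profile of their own family least closely, at r = 0.936 and 0.970, and the others were at 0.980 or above.

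The other genes of the storage protein pathway were taken from fixed lists and read against 45.8% of genes called higher and 33.3% called lower in 48 h SL against 0 h. The CPM beside the fold changes are scaled to the library total alone. The fold changes are not, so the ratio of these CPM differs from them. The vicilin-like cupins, a further class of storage globulins, all fell, 4 of 4, like the cruciferins. PAP85 had mean levels of 31.8 CPM in 48 h SL and 12436 CPM in 0 h and fell by 9.84 ± 0.54 (adjusted p = 3.4e-15). Of the 4 vacuolar processing enzymes, which cut the precursors, 2 were called higher and 2 lower, of which GAMMA-VPE had the other sign with library size alone (0.57). BETA-VPE, the seed-type enzyme, fell by 6.99 ± 0.22 (33.5 CPM in 48 h SL and 1825 CPM in 0 h), and DELTA-VPE, known from the seed coat, was higher by 3.22 ± 0.48 (23.9 CPM in 48 h SL and 1.15 CPM in 0 h). At the end of stratification, in 48 h S against 0 h, 3 of these enzymes and all 4 vicilin-like cupins were lower and none was higher, beside 28.5% of genes called lower.

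Of the 4 genes for vacuolar sorting 1 was called higher and 1 lower in 48 h SL against 0 h. With library size alone 3 were called higher and 1 lower, as MAG1 turned from -0.03 to 1.20 and GRV2 from -0.16 to 1.07. VSR1, the sorting receptor that binds storage protein precursors, fell by 2.63 ± 0.18 (146.5 CPM in 48 h SL and 389 CPM in 0 h). MAG2, needed for export of these precursors from the endoplasmic reticulum, was higher by 0.83 ± 0.18 (15.6 CPM in 48 h SL and 3.73 CPM in 0 h). With library size alone, the scaling of these CPM, VSR1 was at -1.41 and MAG2 at 2.06. Of the 10 maturation regulators 6 were called lower and 1 higher. With library size alone 5 were called lower and 3 higher, as BZO2H1 was lost (-0.41, adjusted p = 0.19) and BZIP53 (1.51) and LEC2 (3.37) were called. ABI5, a bZIP factor of abscisic acid response, fell by 6.66 ± 0.19 (7.65 CPM in 48 h SL and 331.2 CPM in 0 h). BZIP25 was higher by 0.49 ± 0.13 (49.2 CPM in 48 h SL and 15.0 CPM in 0 h), and by 1.72 with library size alone. The B3 regulators ABI3 and FUS3 fell by 3.70 ± 0.37 and 3.16 ± 0.25, whereas LEC1 and LEC2 were at means of 0.128 CPM or below at both times. The repressors of the maturation programme split, with HSL1 higher by 1.35 ± 0.26 and HSI2 lower by 0.67 ± 0.19, and with library size alone HSI2 had the other sign (0.56). Of the 3 aspartic proteases, vacuolar enzymes that also act on storage proteins, APA1 fell by 2.22 ± 0.15 and AT1G62290 by 1.19 ± 0.15, which library size alone turned to 0.04, and AT4G04460 was higher by 0.80 ± 0.25. At the end of stratification, in 48 h S against 0 h, 28.5% of genes were called lower. Called lower there were 4 of 4 sorting genes, 4 of 10 regulators, 1 of 2 repressors and 3 of 3 aspartic proteases. In that comparison 1 regulator was called higher, and the share of all genes called higher is not given here.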

How the data were processed

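Per the study's methods and the labels, reads were trimmed (Trim Galore 0.4.2), aligned to TAIR10 (HISAT2 2.0.5) and counted per Araport11 gene without strand (featureCounts 1.5.1); the labels name polyA selection, the methods a total RNA kit. The gene table deposited by the authors holds raw read counts, with gene lengths. Their isoform table holds a signal per transcript, Salmon 0.7.2 TPM which the authors rescaled with sleuth 0.28.1 (inferred from its sums). Their tables of test results and of called genes were not used.

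Counts were tested with DESeq2 1.42.0 (likelihood ratio test over the time points, adjusted p below 0.01, the test and threshold of the study) and, between time points, edgeR 4.0.16 (TMM, quasi-likelihood, minimum count of 10, 30 libraries in 1 fit, 11 comparisons and 1 added). Isoform ratios were tested with limma 3.58.1 on log2 values with a pseudocount of 0.1, in genes with transcript means above 0.1. CPM are reads scaled to the library total without TMM, and TPM were computed from counts and lengths. Family ratios per library were tested by permutation in Python 3.11.15, and coding sequences were aligned with Biopython 1.88. Of 37336 annotated genes 99.2% matched RefSeq by locus tag. The fits were tested on simulated data. The upstream window of 1 cruciferin gene is not reported here, whatever it holds.

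The members, lists and motifs were chosen with earlier results of these data known. Named were all members, for each family the 3 other genes with the highest correlation to its mean profile (log2(CPM + 1), highest mean at least 10 CPM) and, per pathway list, the largest called change up and down in 48 h SL against 0 h; other list genes were named after their values were seen. Alternatives covered scaling, filter, tool, libraries in the fit, pseudocount, replicate block and left-out libraries.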

Additional observations from a re-analysis of the deposited data

How the results depend on the processing

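All 9 members kept their time effect under every alternative run. Fits of the 6 libraries of a comparison alone called 7 members in 0 h against H, 3 in 12 h S against 1 h S and 3 in 48 h SL against 24 h SL. With 5 libraries that stand apart left out (chosen after seeing the data: all of 1 h S, 1 h SL replicate 2 and 12 h SL replicate 3), 1 member was called in 0 h against H. Leaving out 1 library at a time gave 2 to 6 calls in 12 h S against 1 h S (2 without 1 h S replicate 3), 3 to 5 in 48 h S against 12 h S (3 without 48 h S replicate 2) and 3 to 6 in 48 h SL against 24 h SL. The ratio between families missed the threshold, with a permutation p of 0.0197, with the 3 most abundant cruciferins and SESA1 to SESA4. For CRU3 transcripts, adjusted p was 0.000568 with a pseudocount of 1 and 3.04e-05 without 1 h S and 1 h SL replicate 2, and leaving out 1 replicate of every time point gave 0.00182 to 0.294. For CRA1 transcripts these gave 5.21e-07 and 0.000115 to 0.162. With library size alone 4 vacuolar sorting genes (3 higher, 1 lower) and 1 repressor were called. The cause of these changes was not tested. Shares of all genes called are given for the main fit only, so counts from the alternatives are not set against a background.

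Among the members' fold changes, signs turned only for uncalled values. In 0 h against H SESA1 was at 0.0057 with DESeq2 size factors and with DESeq2's Wald test, and at 0.0019 in the fit of 6 libraries. Library size alone turned AT1G03890 in 1 h S against 0 h (0.068) and, in 1 h SL against 48 h S, CRU2 (0.046) and AT1G03890 (0.073), and SESA4 was at -0.035 there with the 5 libraries left out. Leaving out 1 library at a time gave, in 1 h S against 0 h, -0.52 to 0.076 for CRU2, -0.43 to 0.15 for AT1G03890 and -0.28 to 0.52 for SESA5. It gave -0.037 to 0.78 for SESA5 in 12 h S against 1 h S and -1.002 to 0.10 for SESA5 in 48 h SL against 24 h SL. In 1 h SL against 48 h S it gave -0.18 to 0.058 for CRU2, -0.15 to 0.13 for AT1G03890 and -0.022 to 0.41 for SESA4.

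With the replicate block 108 of 108 fold changes and 12 of 12 counts kept their sign and call. Deviations of libraries with the same replicate number correlated at -0.42 to 0.21 (median 0.02), and 18 of 135 pairs were above 0.1. For libraries with other numbers they correlated at -0.31 to 0.41 (median -0.008), and 27 of 270 pairs were above 0.1. Whether the numbers pair the samples cannot be told from these values. Depth limits AT1G03890 most, with 61, 67 and 113 reads at 48 h SL.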
